A study of Mus musculus with 6 samples.

Results

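Immune checkpoint receptors and ligands were followed at the RNA level in tumours of Hep1-6, a mouse hepatoma cell line, grown under the skin of C57BL/6J mice. The set consists of 10 genes taken by gene name, out of 34745 genes in the expression table: the receptors Pdcd1, Ctla4, Lag3 and Havcr2 and the ligands Cd274, Pdcd1lg2, Cd80, Cd86, Lgals9 and Cd276. All 10 were found, and all 10 passed the level for testing, a mean of at least 0.5 FPKM (fragments per kilobase of gene, scaled to the size of the library) over the 6 libraries. The mice were fed a high cholesterol diet (HCD, 3 tumours) or a normal diet (ND, 3 tumours), and no other treatment or genetic change is named in the labels. Every tumour came from the same cell line, cultured in serum-supplemented DMEM before injection, so the series holds 1 tumour model. The labels do not state that each tumour came from a different animal, nor the age or sex of the mice or the length of the diet, so the p-values below cover the spread among these 6 samples.

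Checkpoint receptors are proteins on T cells and other leukocytes that dampen activation once they meet a ligand on a tumour cell, a macrophage or a dendritic cell. PD-1 (Pdcd1) binds PD-L1 (Cd274) and PD-L2 (Pdcd1lg2), CTLA-4 (Ctla4) competes with the activating receptor CD28 for B7-1 (Cd80) and B7-2 (Cd86), LAG-3 (Lag3) binds MHC class II, and TIM-3 (Havcr2) binds galectin-9 (Lgals9) among other ligands. B7-H3 (Cd276) is a B7 family protein found on many tumour cells. In liver cancer, antibodies against PD-1, PD-L1 and CTLA-4 are used as treatment.

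The libraries held 20351637 to 26228073 fragments, as read from the steps between the values, and 11495 to 12050 genes reached 1 FPKM in each. Hepatoma RNA was present throughout, with Alb, which encodes albumin, at 1176 to 1672 FPKM in HCD and 1272 to 1553 FPKM in ND. T cell and macrophage markers were also present in each tumour and differed most between ND 1, which was lowest, and HCD 2, which was highest. The summed level of 9 T cell markers was 35.1, 56.1 and 20.9 FPKM in HCD 1 to HCD 3 and 6.88, 25.4 and 28.7 FPKM in ND 1 to ND 3. That of 8 macrophage markers was 601, 1006 and 419 FPKM in HCD and 255, 608 and 495 FPKM in ND. No marker of either list was at 0 in every library. In a piece of tissue, fewer cells of a type and less RNA per cell cannot be told apart. Skeletal muscle markers were high in HCD 1 and ND 2 (summed level 739 and 628 FPKM), at 71.1 FPKM in HCD 2 and at 4.64 to 10.8 FPKM in the others.

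By level the set fell into 4 abundant ligands and 6 scarcer genes. Cd274 and Lgals9 averaged 34.8 and 33.1 FPKM over the 6 libraries, above 91.4% and 90.9% of tested genes, and Pdcd1lg2 and Cd276 averaged 18.9 and 14.1 FPKM. Lag3 followed at 5.40 FPKM, then Pdcd1, Cd80 and Cd86 at 3.08, 2.98 and 2.87 FPKM, and Havcr2 and Ctla4 at 1.99 and 1.83 FPKM. The order held in all 6 libraries for Lgals9 above Pdcd1lg2, Pdcd1lg2 above Cd276, Cd276 above Lag3, Lag3 above Pdcd1 and Cd86 above Havcr2. Neighbours that did not separate were Cd274 and Lgals9, Pdcd1 and Cd80, Cd80 and Cd86, and Havcr2 and Ctla4, where the gene with the higher mean was higher in 3 of 6 libraries. These levels are per kilobase, with gene lengths as the authors used them.

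**Figure D1:**
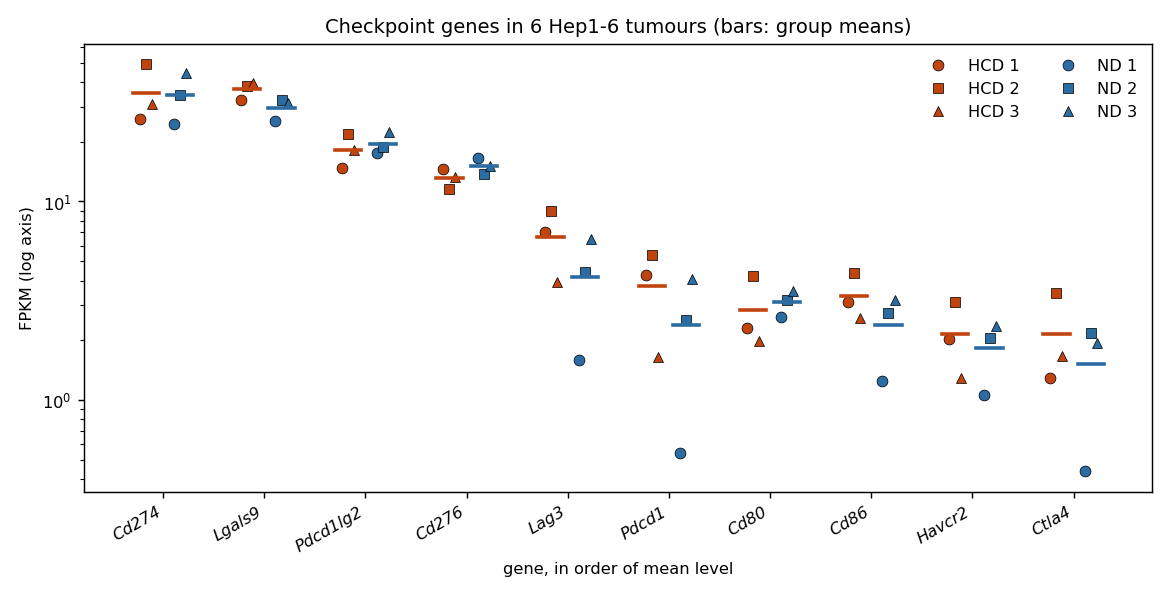
FPKM (log axis) of the 10 checkpoint genes in each of 3 HCD (left of each gene) and 3 ND (right) tumours, with group means as bars. The 4 abundant ligands lie between 11.6 and 49.0 FPKM in every tumour, whereas Pdcd1 and Ctla4 reach down to 0.544 and 0.439 FPKM in ND 1.

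The comparison of HCD with ND asks whether checkpoint transcripts differ with dietary cholesterol. None of the 10 genes passed limma at an adjusted p of 0.05, with adjusted p-values of 0.794 to 0.983, against a background of 0.0% of 13417 tested genes called higher and 0.0% called lower. With limma-voom on whole fragments 0 genes were called as well. At an unadjusted p under 0.05 there was 1 of 10, Lgals9, where 5.88% of tested genes lay under that level. All 4 receptors had a higher mean in HCD, with a median log2 difference of 0.45. Without ND 1 the differences were 0.20 for Lag3, 0.07 for Pdcd1, -0.02 for Ctla4 and -0.07 for Havcr2. Without HCD 2 they were 0.41, 0.30, 0.06 and -0.07 in the same order. The shared direction thus failed without either of these tumours, and it held with any other single tumour left out. The 6 ligands were divided into 3 higher and 3 lower, with a median of -0.04. Over the 10 genes 7 means were higher and the median was 0.22, while 55.7% of all tested genes had a higher mean and 44.3% a lower one, with a median of 0.02. Differences are HCD minus ND on log2(FPKM + 1), a scale that makes the change of scarce genes look smaller. The 95% intervals reached 0.25 to 1.25 to either side of these differences, against a median of 0.23 over all tested genes, and were widest for Pdcd1.

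**Figure D2:**
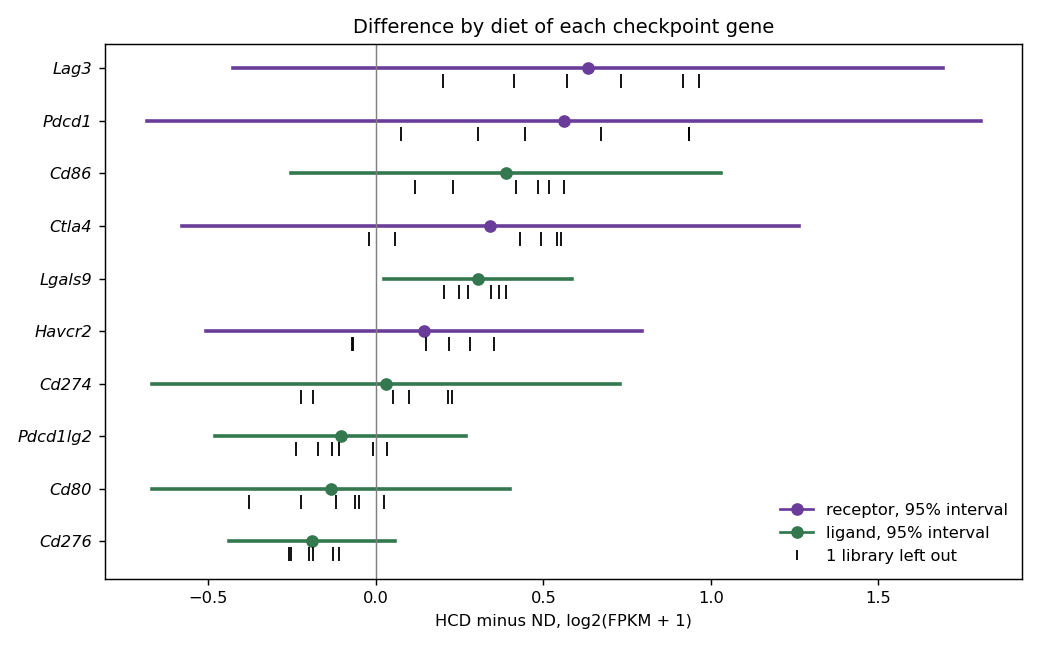
Difference between HCD and ND tumours on log2(FPKM + 1) for each gene, with its 95% interval from limma, and ticks for the difference with 1 library left out. Only the interval of Lgals9 (0.02 to 0.59) lies to 1 side of 0, and the ticks of Pdcd1 spread from 0.07 to 0.94.

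Among the receptors, Pdcd1 encodes PD-1, which appears on T cells after activation. It lies on chromosome 1 (94038305 to 94052553, minus strand, GRCm38). Pdcd1 was at 4.25, 5.38 and 1.66 FPKM in HCD 1 to HCD 3 and at 0.544, 2.53 and 4.10 FPKM in ND 1 to ND 3. The groups overlapped, since HCD 3 lay below ND 2 and ND 3, and ND 1 was lowest by far. Behind these values stood 67 to 212 fragments in HCD and 24 to 163 in ND, and for the 24 fragments of ND 1 counting error alone gave an exact Poisson interval of 0.348 to 0.809 FPKM, well below every other tumour. The log2 difference was 0.56 (SE 0.51, limma adjusted p = 0.824), and 0.07 without ND 1.

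Lag3 encodes LAG-3, which binds MHC class II and delivers an inhibitory signal to T cells (chromosome 6, 124904361 to 124911705, minus strand). It was at 6.997, 8.96 and 3.93 FPKM in HCD and at 1.60, 4.42 and 6.48 FPKM in ND. The 6 tumours fell in the same order as for Pdcd1, HCD 2 first, then HCD 1, ND 3, ND 2, HCD 3 and ND 1. The log2 difference of 0.63 had an SE of 0.44 and a limma adjusted p of 0.795. It was the largest of the 10 on log2(FPKM + 1), while Pdcd1 was above it with a pseudocount of 0.1 (0.85 for Pdcd1 and 0.79 for Lag3) and with limma-voom (0.91 and 0.81). Without ND 1 it was 0.20, and without HCD 3 or ND 3 it was 0.92 or 0.96.

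Ctla4 encodes CTLA-4, carried by regulatory and recently activated T cells (chromosome 1, 60887000 to 60915832, plus strand). Its level was 1.29, 3.47 and 1.67 FPKM in HCD and 0.439, 2.19 and 1.93 FPKM in ND. HCD 2 was high and ND 1 low, and the 2 remaining ND tumours lay above the 2 remaining HCD tumours. The log2 difference of 0.34 (SE 0.38, limma adjusted p = 0.851) was 0.06 without HCD 2 and turned to -0.02 without ND 1. It was 0.54 without HCD 1, 0.55 without ND 2 and 0.75 without both of these muscle-rich tumours.

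Havcr2 encodes TIM-3, found on exhausted T cells and also on macrophages and dendritic cells (chromosome 11, 46454935 to 46481255, plus strand). Havcr2 was at 2.03, 3.13 and 1.29 FPKM in HCD and at 1.07, 2.07 and 2.35 FPKM in ND. It had the smallest range of the receptors, 2.93-fold from the lowest to the highest tumour, against 5.61-fold for Lag3, 7.91-fold for Ctla4 and 9.89-fold for Pdcd1. The groups overlapped, with a log2 difference of 0.14 (SE 0.27, limma adjusted p = 0.908) that turned to -0.07 without HCD 2 or without ND 1.

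The bases just upstream of the start sites of Pdcd1 and Ctla4 are shown because these receptors had the widest fold ranges across the tumours. They are RefSeq windows on GRCm38.p6 of the 250 bases before the start site, 5′ to 3′ on the strand of the gene, with matches to 5 motifs in capitals. The motifs were searched on both strands: GAAANNGAAA (the core of the interferon-stimulated response element, ISRE), TTCNNNGAA (the interferon gamma activated site, GAS), TGANTCA (AP-1), GGAAAA (the NFAT core) and TATAAA (the TATA box). These occur in 2.98%, 7.02%, 6.75%, 20.4% and 12.4% of 32851 RefSeq promoter windows of that length. Of the 10 genes 8 had a window, all but Cd86 and Lag3, and no matches overlapped in them. The Ctla4 window, which lies inside the span that GENCODE M21 gives the gene, holds an NFAT core on the opposite strand and the Pdcd1 window no match to any of the 5.
Pdcd1, chr1:94052554-94052803, minus strand: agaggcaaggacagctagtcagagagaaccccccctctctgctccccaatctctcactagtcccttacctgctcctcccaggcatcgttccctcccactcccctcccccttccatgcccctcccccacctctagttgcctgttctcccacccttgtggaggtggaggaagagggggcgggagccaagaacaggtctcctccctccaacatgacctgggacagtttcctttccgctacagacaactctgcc
Ctla4, chr1:60908775-60909024, plus strand: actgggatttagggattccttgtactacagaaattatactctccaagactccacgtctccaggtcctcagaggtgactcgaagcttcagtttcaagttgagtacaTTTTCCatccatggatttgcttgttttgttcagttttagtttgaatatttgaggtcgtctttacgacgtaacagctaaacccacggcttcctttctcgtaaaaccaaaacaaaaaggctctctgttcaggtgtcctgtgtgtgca
A match is a run of letters and not a shown binding site.

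The PD-1 ligands Cd274 and Pdcd1lg2 were abundant and close between the diets. Cd274 encodes PD-L1, which tumour cells and leukocytes carry and which interferon gamma induces (chromosome 19, 29367455 to 29388095, plus strand). Cd274 was at 26.1, 49.0 and 30.9 FPKM in HCD and at 24.5, 34.3 and 44.1 FPKM in ND. Each group spanned most of the range, with HCD 2 and ND 3 high and HCD 1 and ND 1 low. The log2 difference was 0.03 (95% interval -0.67 to 0.73, limma adjusted p = 0.983). It turned to -0.22 without HCD 2 and to -0.19 without ND 1. An antisense gene shares exon bases with Cd274, and with no strand setting stated, reads of the pair cannot be told apart.

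Pdcd1lg2 encodes PD-L2, known mostly from macrophages and dendritic cells, and starts 22.8 kb beyond the end of Cd274 (chromosome 19, 29410919 to 29471161, plus strand). It was at 14.7, 21.8 and 18.1 FPKM in HCD and at 17.6, 18.7 and 22.3 FPKM in ND, and the groups overlapped. Its log2 difference of -0.10 (95% interval -0.48 to 0.27, limma adjusted p = 0.879) turned to 0.03 without HCD 1. Per kilobase, Cd274 exceeded Pdcd1lg2 in every tumour, by 1.71 to 2.24 times in HCD and by 1.39 to 1.98 times in ND. Cd274 exceeded its receptor gene Pdcd1 by 6.14 to 18.6 times in HCD and by 10.8 to 45.0 times in ND, the widest span of the 9 ratios computed between genes of the set.

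Cd80 and Cd86, the ligands shared by CTLA-4 and CD28, were also compared by their ratio. Cd86, carried by macrophages, dendritic cells and B cells (chromosome 16, 36603869 to 36666081, minus strand), was at 3.12, 4.35 and 2.59 FPKM in HCD and at 1.26, 2.75 and 3.18 FPKM in ND. ND 1 lay lowest and the other ND tumours within the range of HCD, with a log2 difference of 0.39 (SE 0.26, limma adjusted p = 0.795) that was 0.12 without ND 1 and 0.23 without HCD 2. Cd80 (chromosome 16, 38455561 to 38496335, plus strand) had 2.31, 4.23 and 2.00 FPKM in HCD and 2.62, 3.18 and 3.53 FPKM in ND. HCD 2 was highest and the other HCD tumours lowest of all 6. The log2 difference of Cd80 was -0.14 (SE 0.22, limma adjusted p = 0.892), which was -0.38 without HCD 2 and turned to 0.02 without HCD 3.

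The level of Cd86 over that of Cd80 was 1.35, 1.03 and 1.30 in HCD and 0.479, 0.863 and 0.900 in ND. The value of Cd86 was above that of Cd80 in each HCD tumour and in no ND tumour. The exact Poisson 95% intervals of the 2 genes lay apart in HCD 1 and ND 1 but overlapped in HCD 2, HCD 3, ND 2 and ND 3. Overlap of 2 intervals is not a test of their difference. The ratio of Cd86 to Cd80 was the only one of the 9 whose groups did not overlap, and it was singled out after its values were seen. Of single tested genes 12.1% had groups that did not overlap, and no such share was computed for ratios. With 3 tumours a group, an exact two-sided permutation test cannot give a p below 0.1, so no test was run. The counts behind the ratio were 142 to 415 fragments in HCD and 134 to 336 in ND for either gene.

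Lgals9 had the narrowest interval of the genes with a higher mean in HCD. It encodes galectin-9, a secreted lectin that binds TIM-3 (chromosome 11, 78962974 to 78984946, minus strand). Lgals9 was at 32.5, 38.1 and 39.6 FPKM in HCD and at 25.4, 32.2 and 31.1 FPKM in ND, or 36.7 ± 3.76 and 29.6 ± 3.66 FPKM (SD, n = 3 each). Every HCD value lay above every ND value, though HCD 1 and ND 2 differed by less than the counting error of either. It was the 1 gene of the 10 without overlap, where 12.1% of all tested genes had none and 5.98% of all tested genes had none and were higher in HCD. The log2 difference was 0.30 (SE 0.12), with a limma unadjusted p of 0.0375 and an adjusted p of 0.794, so the call failed the correction. Without ND 1 the difference was 0.20, and without the muscle-rich HCD 1 and ND 2 it was 0.45.

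The upstream bases of Lgals9 are shown because its window alone, of the 8, matched the ISRE core. The match lies on the opposite strand and begins 55 bases before the RefSeq start site; bases that GENCODE M21 places in an exon of the gene are left off.
Lgals9, chr11:78984947-78985174, minus strand: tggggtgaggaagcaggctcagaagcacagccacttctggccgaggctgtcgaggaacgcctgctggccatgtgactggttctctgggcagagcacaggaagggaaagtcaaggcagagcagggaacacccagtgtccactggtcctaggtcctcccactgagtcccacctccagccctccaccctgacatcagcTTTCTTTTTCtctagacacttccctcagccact
Cd274, known to respond to interferon, had no match to the ISRE or GAS letters within its own 250 bases, which says nothing of sites elsewhere.

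Cd276 lay the other way from most of the set across the tumours. It encodes B7-H3 (chromosome 9, 58524298 to 58555437, minus strand) and was at 14.5, 11.6 and 13.2 FPKM in HCD and at 16.5, 13.7 and 15.1 FPKM in ND. ND 1, where T cell and macrophage markers were lowest, was its highest tumour, and HCD 2, where they were highest, its lowest. The log2 difference of -0.19 (95% interval -0.44 to 0.06, limma adjusted p = 0.794) was -0.11 without HCD 2, -0.13 without ND 1 and -0.32 without the muscle-rich HCD 1 and ND 2 (limma adjusted p = 0.723). The 250 bases before its RefSeq start site, all of which GENCODE M21 places in an exon of the gene, were 77.6% G and C with 29 CpG, where the median of all windows was 52.4% G and C. A predicted gene on the other strand overlaps an exon and was listed at no more than 0.188 FPKM.

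The tumours of 1 diet differed widely in most of the set. HCD 2 was the highest tumour for 7 of 10 genes (24.0% of all tested genes) and ND 1 the lowest for 7 of 10 (27.0%), with both for 6 of 10 (11.9%): Cd274, Lag3, Pdcd1, Cd86, Havcr2 and Ctla4. The range over the 6 tumours reached 1 on the log2 scale for 4 genes, Pdcd1, Lag3, Ctla4 and Cd86, where 8.91% of tested genes had such a range. Spread within a diet exceeded counting error for each gene. For Pdcd1 the coefficient of variation was 50.7% in HCD and 74.5% in ND, against 8.20% and 9.82% from counting alone.

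**Figure D3:**
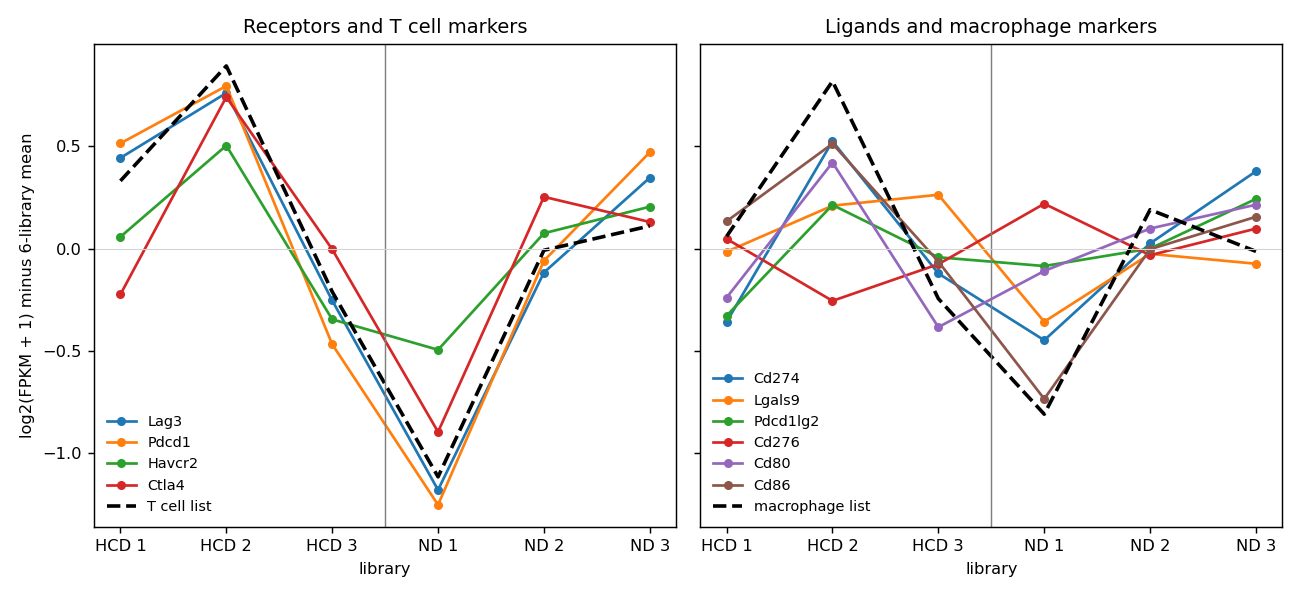
Each gene's log2(FPKM + 1) in the 6 tumours, centred on its own mean, with receptors beside the mean of 8 tested T cell markers (left, dashed) and ligands beside the mean of 8 macrophage markers (right, dashed); lines only join the values of a gene. Lag3 and Pdcd1 lie near the T cell line in every tumour, Cd86 follows the macrophage line, and Cd276 is high in ND 1 and low in HCD 2.

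Beside T cell markers, Lag3 and Pdcd1 were nearly level. The log2(FPKM + 1) of Lag3 minus the mean of the 8 tested T cell markers was 0.71, 0.47 and 0.56 in HCD and 0.53, 0.49 and 0.83 in ND, a range of 0.37 where the range of Lag3 itself was 1.94. Pdcd1 had a range of 0.62 beside the same markers and of 2.05 by itself. Relative to these markers the HCD and ND means of Lag3 differed by -0.04 and those of Pdcd1 by -0.11, and with a pseudocount of 0.1 by -0.17 and -0.11. Whether the diet acts on Pdcd1 or Lag3 beyond the amount of T cell RNA was not tested, and the markers moved with both genes.

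Over the 10901 other genes with at least 1 FPKM, predicted models left out, Cd8a had the pattern most like Lag3 across the 6 tumours and also the one most like Pdcd1. Cd8a encodes the alpha chain of CD8, the co-receptor of cytotoxic T cells. Likeness was the root mean square difference of centred log2(FPKM + 1) values, 0.03 for Lag3 and 0.10 for Pdcd1. The level of Lag3 over that of Cd8a was 1.63, 1.63 and 1.83 in HCD and 2.27, 1.64 and 1.69 in ND, and that of Pdcd1 over Cd8a was 0.992, 0.978 and 0.772 in HCD and 0.772, 0.935 and 1.07 in ND. These ratios to Cd8a were chosen after values were seen. In FPKM, Pdcd1 lay close to Cd8a and Lag3 above it in all 6 tumours. The next in likeness were Ccl8, a chemokine, for Lag3 (0.11) and Trac, the constant segment of the T cell receptor alpha chain, for Pdcd1 (0.14).

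Ctla4 and Cd86 had other neighbours. Ctla4 was most like Gbp5, an interferon-inducible GTPase (0.05), and Fcgr1, a macrophage Fc receptor (0.07), and its level over that of Cd4 ran from 0.952 to 1.86 in HCD and from 0.976 to 1.90 in ND. Cd86 was most like Tlr12, a Toll-like receptor (0.04), and Il2rg, the common gamma chain of cytokine receptors (0.06). Its level beside the macrophage markers had a range of 0.49 against 1.25 for Cd86 itself, and the HCD and ND means of that relative level differed by -0.03, which turned to 0.10 with a pseudocount of 0.1. These matches describe 6 tumours and carry no p. Likeness, for Lag3 and Pdcd1 as well, was computed only on log2(FPKM + 1), and no other pseudocount was tried. That scale makes changes of scarce genes such as Ctla4 look smaller, so the nearest genes may depend on it.

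The ligands other than Cd86 did not follow macrophage markers so closely. Beside the macrophage markers the range was 0.81 for Cd274, 1.12 for Lgals9, 1.33 for Pdcd1lg2, 1.10 for Cd80 and 2.10 for Cd276, while their own ranges were 0.97, 0.62, 0.57, 0.80 and 0.47. Lgals9, Pdcd1lg2, Cd80 and Cd276 thus varied more beside these markers than by themselves. Beside the 7 hepatoma markers the ranges were 0.56 for Cd276, 0.96 for Pdcd1lg2 and 0.98 for Lgals9. Each was smaller than beside the macrophage markers but still wider than the gene's own. Cd274 and Cd80 went the other way, with ranges of 1.38 and 1.31 beside the hepatoma markers, wider than beside the macrophage markers.

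Beside T cell and macrophage markers, several ligands had lower relative levels in HCD. There the mean of the tested T cell markers was 0.68 higher and that of the macrophage markers 0.42 higher on the log2 scale. Most of each drop thus lay in the markers. The marker means themselves overlapped between the diets, at 2.29, 2.85 and 1.75 in HCD and 0.84, 1.95 and 2.07 in ND for T cells. On both lists HCD 2 was highest, ND 1 lowest, and HCD 3 below ND 2 and ND 3. Relative levels were not recomputed without HCD 2 or ND 1. The HCD minus ND difference beside the macrophage and the T cell markers was -0.61 and -0.86 for Cd276, -0.56 and -0.81 for Cd80 and -0.53 and -0.78 for Pdcd1lg2. Of these 3 only Cd80 had groups that did not overlap. Its log2(FPKM + 1) minus the mean of the 8 macrophage markers was -3.63, -3.72 and -3.47 in HCD and -2.63, -3.42 and -3.10 in ND, without overlap, and minus the mean of the 8 tested T cell markers it was -0.56, -0.46 and -0.16 in HCD and 1.01, 0.12 and 0.11 in ND. Groups that did not overlap on the lower side made up 1.14% of tested genes beside the macrophage markers, with Cd80 the only checkpoint gene, and 4.19% beside the T cell markers, with Cd80 and Havcr2. With a pseudocount of 0.1 the differences of Cd80 were -0.62 and -1.15. Beside the 7 hepatoma markers Cd276 was at -2.50, -2.39 and -2.72 in HCD and at -2.32, -2.36 and -2.16 in ND, without overlap, as were 2.29% of tested genes on the lower side. These values were noticed in the data and carry no test.

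Partners of the checkpoint genes were read from lists taken whole. None of their genes passed limma at an adjusted p of 0.05 over all 13417 genes. At a limma unadjusted p under 0.05 there was 1 gene each among 8 tested CD28 and B7 partners and 14 other inhibitory genes. The same held for 3 regulatory T cell and 4 neutrophil markers, and the other partner and marker lists had none. Of all tested genes 5.88% lay under that level. On the MHC class II list, 4 of 4 genes had a higher mean in HCD with a median log2 difference of 0.67, and ND 1 was the lowest tumour of each. H2-Aa, H2-Ab1 and H2-Eb1 encode chains of MHC class II, the ligand of LAG-3. Cd74, also on the list, encodes the invariant chain and is not such a ligand. H2-Aa was at 185, 230 and 125 FPKM in HCD and at 55.2, 155 and 145 FPKM in ND (limma adjusted p = 0.794). Among the CD28 and B7 partners, 8 of 12 genes were tested, with 6 higher and 2 lower and a median of 0.17. Tnfrsf14, the ligand of BTLA, was the most abundant at 7.76, 14.1 and 6.61 FPKM in HCD and 4.57, 8.18 and 8.26 FPKM in ND. Vsir, which encodes VISTA, and Icosl, the ligand of ICOS, differed by 0.32 and 0.15, and Rgmb, a partner of PD-L2, by -0.17.

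Other inhibitory genes were divided, 10 higher and 4 lower of 14 tested, with a median of 0.12. Lgals3, a galectin that binds LAG-3, differed by 0.24 and Ido1, a tryptophan-degrading enzyme, by 0.04. Cd47, the signal against phagocytosis, differed by 0.02 and Hmgb1, a nuclear protein that also binds TIM-3, by -0.004. Fgl1, a liver-made ligand of LAG-3 named here after its values were seen, was at 3.14, 1.82 and 3.20 FPKM in HCD and at 4.80, 3.53 and 4.80 FPKM in ND. Every HCD value of Fgl1 lay below every ND value, as in 6.13% of tested genes, with a log2 difference of -0.55 and a limma adjusted p of 0.794.

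The interferon gamma pathway upstream of Cd274 had 7 of 10 genes with a higher mean and a median of 0.04. Irf1, the transcription factor through which interferon gamma induces Cd274, was at 35.0, 45.6 and 33.4 FPKM in HCD and at 25.6, 38.9 and 39.8 FPKM in ND, highest in HCD 2 and lowest in ND 1 as was Cd274. Jak2, Ifngr1 and Cmtm6, which keeps PD-L1 at the cell surface, differed by -0.17, 0.03 and -0.05. Of the factors of exhausted and stem-like T cells, 7 of 10 were tested, 6 of them higher, with a median of 0.07. Tcf7, Nr4a1, Prdm1 and Nfatc1 differed by 0.06, 0.07, -0.02 and 0.02. Tcf7 was at 31.9 to 44.1 FPKM, far above Cd3e at 1.04 to 8.69 FPKM, and which cells of the tumour it came from was not tested.

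Phosphatases and kinases below the receptors had 5 of 6 means higher with a median of 0.37. Ptpn6 and Ptpn11, the phosphatases SHP-1 and SHP-2 recruited by PD-1, differed by 0.13 and -0.07, and Inpp5d and Fyn by 0.38 and 0.35. T cell markers had 8 of 8 tested means higher (median 0.70) and macrophage markers 7 of 8 (median 0.47), while the 4 tested neutrophil markers all had lower means (median -0.63). Of 5 regulatory T cell markers 3 were tested and all 3 had a higher mean (median 0.13), Tnfrsf18 and Tnfrsf4 by 0.04 and 0.13. Il2ra, the alpha chain of the interleukin-2 receptor, was at 0.771, 0.843 and 0.718 FPKM in HCD and at 0.192, 0.560 and 0.483 FPKM in ND, without overlap, with a log2 difference of 0.34 and a limma adjusted p of 0.794. Ikzf2 and Foxp3, the defining factor of these cells, were not tested. Foxp3 lay below the level for testing, at 0.278 to 0.548 FPKM in HCD and 0.137 to 0.466 FPKM in ND.

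**Figure D4:**
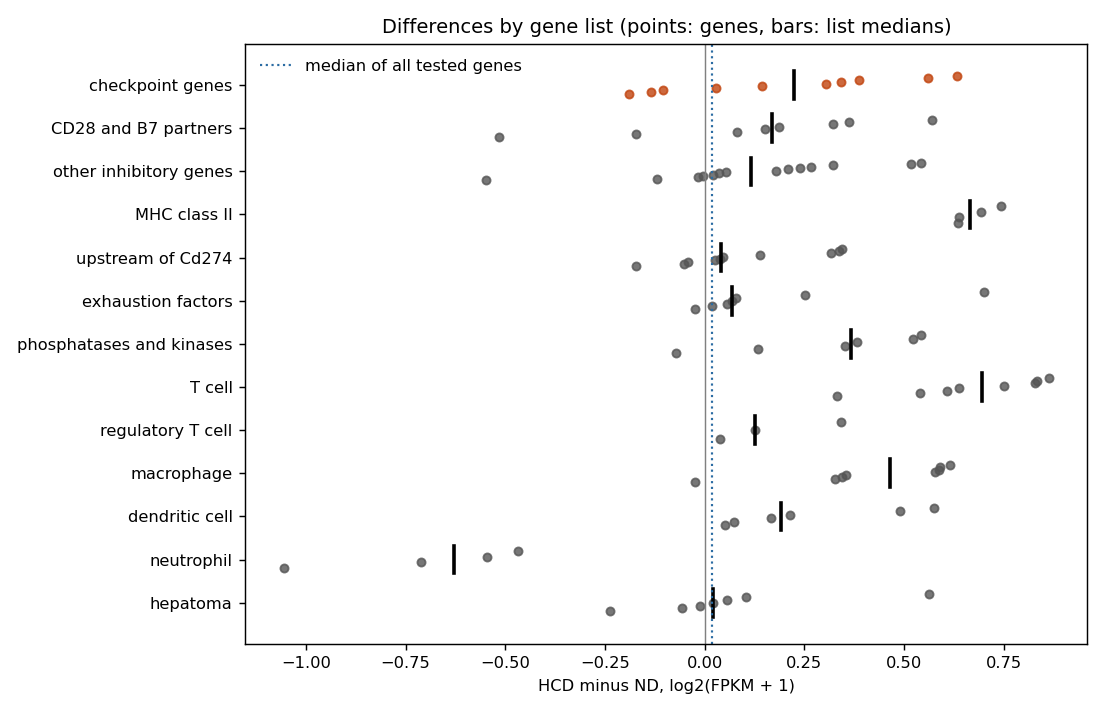
Log2 difference between HCD and ND tumours of each tested gene (points) by list, with list medians (bars) and the median of all tested genes (dotted, 0.02). Checkpoint genes run from -0.19 to 0.63 around a median of 0.22. The MHC class II list, with Cd74, runs from 0.63 to 0.74, and neutrophil markers lie below 0.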

How the data were processed

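The authors deposited FPKM values, 1 column for each library, per the file headers. Tools named in the submitters' processing notes are TopHat2 2.0.9, CASAVA 1.8, edgeR and HTSeq, with no role for any, and the build is mm10. Strand setting and annotation release are not stated. FPKM are not counts, so limma 3.58.1 (R 4.3.3) was fitted on log2(FPKM + 1) for the 13417 genes averaging 0.5 FPKM or more, with diet as the only term, a variance trend, two-sided tests and Benjamini-Hochberg adjustment over all of them. The fit was tested on simulated data.

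Fragments behind each value were recovered by finding library sizes and gene lengths at which all 6 values were whole within 0.02, which held for 98.7% of tested genes and for all 10 checkpoint genes. At 2 kb of length, 1 FPKM stood for 40.7 to 52.5 fragments. Intervals and coefficients of variation from counts cover counting error only.

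The genes and lists were chosen with earlier results of these data known. By rule, all 10 checkpoint genes were named, from each pathway list up to 4 genes with the highest mean, and for genes ranging by at least 1 on the log2 scale the 2 most similar patterns. Foxp3, Fgl1, Vtcn1 and Batf are named outside the rule, and of other marker lists mainly sums and counts are given. Cd244a and Vsir were matched by Ensembl ID, and Hhla2 had no match. Gene positions (1-based) were taken from GENCODE M21, built on GRCm38, which is mm10. Upstream sequences are from RefSeq on GRCm38.p6.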

Additional observations from a re-analysis of the deposited data

How the results depend on the processing

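With 3 tumours a group, the 95% intervals reached from 0.25 (Cd276) to 1.25 (Pdcd1) to either side on the log2 scale. A difference smaller than the reach of its own gene could not be told from 0. A larger one could still fail the adjustment, as for Lgals9 (interval 0.02 to 0.59, limma adjusted p = 0.794). The count of genes passing limma was 0 higher and 0 lower in HCD in each of the 14 alternatives run, except 1 lower without ND 2. Leaving out each tumour gave 0 to 0 genes higher and 0 to 1 lower, and 0 to 0 checkpoint genes. Of 140 recomputed differences of the 10 genes, 132 kept their direction and side of the threshold, with a lowest adjusted p of 0.545, and 8 turned: Cd274 to -0.225 without HCD 2 and -0.187 without ND 1, Pdcd1lg2 to 0.033 without HCD 1 and 0.0068 without ND 2 and HCD 1 together, Cd80 to 0.023 without HCD 3, Havcr2 to -0.072 without HCD 2 and -0.068 without ND 1, and Ctla4 to -0.020 without ND 1. Leaving out each tumour, these genes spanned -0.225 to 0.23 (Cd274), -0.24 to 0.033 (Pdcd1lg2), -0.38 to 0.023 (Cd80), -0.072 to 0.35 (Havcr2) and -0.020 to 0.55 (Ctla4). The cause was not tested. Directions of these differences held under median-ratio and upper-quartile scaling, a pseudocount of 0.1 and limma-voom on whole fragments. With limma-voom Pdcd1 differed by 0.91 and Lag3 by 0.81. The scaling factors were 0.984 to 1.021, so scaling could move the differences little. Other filters on low values and the replicate block leave each difference as it is, so their part of the 140 could not turn. Relative to the macrophage markers, a pseudocount of 0.1 turned Cd86 to 0.10 and Ctla4 to 0.17, against -0.03 and -0.08. The labels state no pairing of tumours. Deviations of same-numbered tumours of the 2 diets correlated at -0.19, 0.14 and 0.06, which cannot show whether they shared a batch. With the replicate number as a block, limma called 0 genes higher and 0 lower. Such a balanced block leaves the differences as they are, 0.30 for Lgals9 and -0.19 for Cd276, and changes their SE. The SE went from 0.12 to 0.06 for Lgals9 and from 0.10 to 0.06 for Cd276. Their limma unadjusted p went from 0.0375 to 0.0056 and from 0.111 to 0.030, at an adjusted p of 0.794 each. The SE rose for Lag3 (0.44 to 0.45) and Pdcd1 (0.51 to 0.54) and fell for the other checkpoint genes.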

Other observations

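Vtcn1, which encodes the B7 family protein B7-H4, and Batf, a transcription factor of activated T cells, also had groups that did not overlap and were named after their values were seen. So did Il2ra, described above, and Csf3r, the receptor of granulocyte colony-stimulating factor and a neutrophil marker, where 12.1% of all tested genes had no overlap. Csf3r was at 5.89, 8.04 and 5.41 FPKM in HCD and at 8.75, 8.16 and 10.8 FPKM in ND, with a log2 difference of -0.47 and a limma adjusted p of 0.794. Vtcn1 was at 2.49, 2.45 and 1.57 FPKM in HCD and at 4.92, 2.70 and 3.13 FPKM in ND, with a log2 difference of -0.52 and a limma adjusted p of 0.794. Batf was at 2.83, 5.95 and 2.60 FPKM in HCD and at 0.962, 2.52 and 2.23 FPKM in ND, with a log2 difference of 0.70 and a limma adjusted p of 0.794.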
